A study of Mus musculus with 6 samples.

Results

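Ubiquitin ligases are the enzymes that choose which proteins receive ubiquitin, a small protein tag that marks its carrier for degradation or changes where and with whom it acts. Described here are 10 genes of this system on arrays of Bach2 knockout and wildtype thymocytes: Rnf19a and Rnf19b set beside ligases and an adaptor known from T cell tolerance (Rnf128, Cbl, Cblb, Itch, Nedd4, Ndfip1, Peli1 and Traf6). Each was found by its exact symbol among probe sets annotated with 1 gene, and all 10 of 10 had such a probe set, out of 19938 genes tested. Each of them had 1 probe set. The set was chosen by the knockout minus wildtype differences of its Rnf19 genes together with published roles of the others, with those differences already known for all 10, so they are given as a description and support nothing further.

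Tolerance is the state in which T cells that could attack the body's own tissues are deleted, silenced or held in check. Ligases contribute by tagging the signalling proteins downstream of the T cell receptor, which raises the stimulus a cell needs before it responds. RING ligases pass ubiquitin directly from a conjugating enzyme to the substrate, whereas HECT ligases first take it onto a cysteine of their own. RBR (RING-between-RING) ligases such as Rnf19a and Rnf19b have RING domains but also pass ubiquitin over a cysteine.

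The cells were CD4 single-positive thymocytes of male mice on a C57BL/6 background, measured on 6 arrays, 3 of each genotype. Male Rag1 knockout hosts, in which no mature T or B cells form, were lethally irradiated and given equal parts of lineage-depleted marrow from Ly5.1-negative Bach2 knockout and Ly5.1-positive wildtype donors, and donors and hosts were 8 weeks old. Thymocytes of either genotype were sorted 2 months later by flow cytometry, told apart by Ly5.1, which is 1 version of CD45, a protein on the surface of blood cells. Per the design text every sample came from its own mouse and the 3 samples of a genotype were biological replicates. All 6 samples thus came from irradiated Rag1 knockout hosts, and Ly5.1 and genotype always changed together. The product of Bach2 is a repressor of transcription. Both genotypes matured in the same kind of host, and the comparison was of knockout against wildtype thymocytes.

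Values are log2 array values, on which a difference of 1 is a doubling, and a level of one probe set cannot be set against that of another. Array medians lay between 4.93 and 4.97. Bach2 itself read 7.89, 8.20 and 8.05 in wildtype cells against 6.50, 6.42 and 6.52 in knockout cells, lower on every knockout array. The markers fixed for the sorted cells included Cd4, between 10.3 and 10.4 on all arrays, and Cd3e, between 11.4 and 11.5. Of their 6 measured members 0 passed the test between genotypes, where 0.567% of all genes did. Ccr7 of this list was lower in the knockout without overlap (difference -0.15, adjusted p = 0.887). Cd8a, at 7.67 to 8.90, and Cd8b1, at 8.77 to 9.55, are on the list of double-positive markers below. They also read above the array medians. In sorted bulk RNA, fewer cells of a type and less RNA per cell cannot be told apart.

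Rnf19a and Rnf19b were higher in knockout thymocytes by nearly the same amount, and the differences of the other 8 genes ran from -0.28 to 0.02 on the log2 scale. Rnf19a, also known as dorfin and studied in human cells for tagging misfolded proteins, read 8.26, 8.34 and 8.24 in wildtype cells against 9.01, 8.97 and 8.86 in knockout cells. Its groups were 0.515 log2 units apart at their nearest values, wider than the range of 0.105 within wildtype or 0.151 within knockout. Means were 8.28 ± 0.06 and 8.95 ± 0.08 (SD, n = 3 each), a difference of 0.67 ± 0.09 (limma standard error), or 1.59-fold higher, with a 95% interval of 0.46 to 0.87.

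Rnf19b, also known as NKLAM and described in the cytotoxic granules of natural killer cells and in macrophages, read 5.91, 6.20 and 6.32 in wildtype cells against 6.87, 6.89 and 6.74 in knockout cells. The groups again did not overlap, with a gap of 0.421, and wildtype replicate 1 was the lowest of the 6. Means were 6.14 ± 0.21 and 6.83 ± 0.08 (SD, n = 3 each), and the difference was 0.69 ± 0.12, or 1.61-fold, with a 95% interval of 0.43 to 0.96. The differences of Rnf19a and Rnf19b were 0.02 apart. These genes are paralogs, and whether a probe set of one binds cDNA of the other was not tested. In the order of the size of the difference, 0.757% of all genes lay at least as far from 0 as Rnf19a and 0.682% at least as far as Rnf19b.

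In the limma fit over all genes, with Benjamini-Hochberg adjustment and a threshold of 0.05, 2 of the 10 genes were called, Rnf19a (adjusted p = 0.0112) and Rnf19b (adjusted p = 0.0345), both higher. Over all genes 0.567% were called, 0.351% as higher and 0.216% as lower, and since the genes were chosen with this contrast known nothing is read from the count. At an unadjusted p under 0.05 there were 3 of the 10, against 6.91% of all genes. Each of 6 reduced fits left out 1 array, and calls were lost although the differences kept similar sizes. Rnf19a was not called without wildtype replicate 3 (adjusted p = 0.0722), knockout replicate 1 (0.0578) or knockout replicate 2 (0.0764). Rnf19b was called in 0 of the 6 reduced fits, with adjusted p of 0.065, 0.0644 and 0.0623 without wildtype replicates 1, 2 and 3 and of 0.123, 0.179 and 0.1 without knockout replicates 1, 2 and 3. The sizes ran from 0.64 to 0.71 for Rnf19a and from 0.57 to 0.78 for Rnf19b over those fits.

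**Figure D1:**
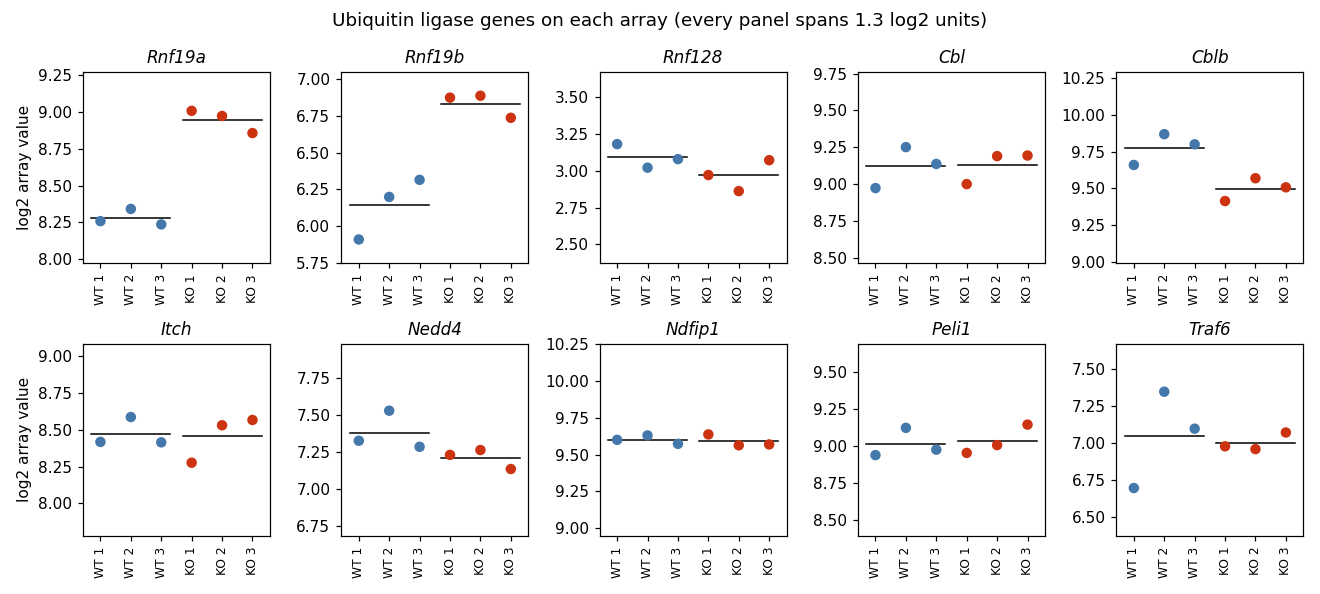
Log2 array value (vertical axis) of each of the 10 genes on the 3 wildtype (WT, blue) and 3 knockout (KO, red) arrays, with a line at each group's mean; every panel has a vertical axis of the same length. Knockout points lie above all wildtype points for Rnf19a and Rnf19b and below them for Cblb and Nedd4. For the other 6 they lie neither all above nor all below the wildtype points.

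The Cbl proteins are RING ligases that bind phosphorylated tyrosines of activated signalling proteins. Cblb, whose loss in mice frees T cells from the need for CD28 costimulation, read 9.66, 9.87 and 9.80 in wildtype cells against 9.41, 9.57 and 9.51 in knockout cells. All knockout values lay below all wildtype values, though the gap of 0.09 was smaller than the range within either genotype (0.209 and 0.155). The difference was -0.28 ± 0.10, with a 95% interval of -0.50 to -0.06, and it was not called (adjusted p = 0.518). Its sign held in each of the 6 reduced fits, from -0.34 to -0.23.

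Cbl, which acts on receptor complexes in immature thymocytes, read 8.97, 9.25 and 9.14 in wildtype cells against 9.0, 9.19 and 9.19 in knockout cells. The groups overlapped throughout, and replicate 1 was the lowest of each genotype. The difference was 0.01 ± 0.11, with a 95% interval of -0.23 to 0.25.

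Itch and Nedd4 are HECT ligases, and Ndfip1 is a membrane adaptor that recruits and activates them. Itch, which tags JunB and whose loss causes inflammatory disease in itchy mice, read 8.42, 8.59 and 8.41 in wildtype cells against 8.28, 8.53 and 8.57 in knockout cells. Its groups overlapped, with both the lowest and the second highest value on knockout arrays, and the difference was -0.02 with a 95% interval of -0.24 to 0.23. Nedd4, which in mouse T cells promotes activation by tagging Cbl-b, read 7.33, 7.53 and 7.29 in wildtype cells against 7.23, 7.26 and 7.13 in knockout cells. The 3 knockout values lay below the wildtype ones by a gap of 0.022, far inside the range of 0.245 within wildtype.

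The Nedd4 difference was -0.17 ± 0.10, with a 95% interval of -0.40 to 0.05. Ndfip1 had the narrowest range within either genotype of the 10 genes, reading 9.60, 9.63 and 9.57 in wildtype cells against 9.64, 9.56 and 9.57 in knockout cells. Its groups overlapped, and the difference of -0.01 had a 95% interval of -0.21 to 0.18.

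Rnf128, the transmembrane ligase known as GRAIL that rises in anergic T cells, was dim and read 3.18, 3.02 and 3.08 in wildtype cells against 2.97, 2.86 and 3.07 in knockout cells. Those values are below the median of all probe sets, 4.94, and it was the 1 gene of the 10 that a filter at that level removed. Values this low leave little room to see a fall. The groups overlapped and the difference was -0.13, with a 95% interval of -0.35 to 0.09.

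Peli1, a ligase that restrains T cells by tagging the NF-kB subunit c-Rel, read 8.94, 9.12 and 8.98 in wildtype cells against 8.95, 9.01 and 9.15 in knockout cells. Traf6, a RING ligase that carries signals from interleukin 1 and Toll-like receptors to NF-kB, read 6.70, 7.35 and 7.10 in wildtype cells against 6.98, 6.96 and 7.07 in knockout cells. Both overlapped, and the range of Traf6 within wildtype, 0.654, was the widest of the 10 genes. Their differences were 0.02 (95% interval -0.20 to 0.25) and -0.04 (-0.38 to 0.29). For Rnf128, Cbl, Itch, Nedd4, Ndfip1, Peli1 and Traf6, 7 of the 8 genes beside Rnf19a and Rnf19b, the interval thus held 0, and for each it allowed a change of up to 0.2 log2 units or more in at least one direction.

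**Figure D2:**
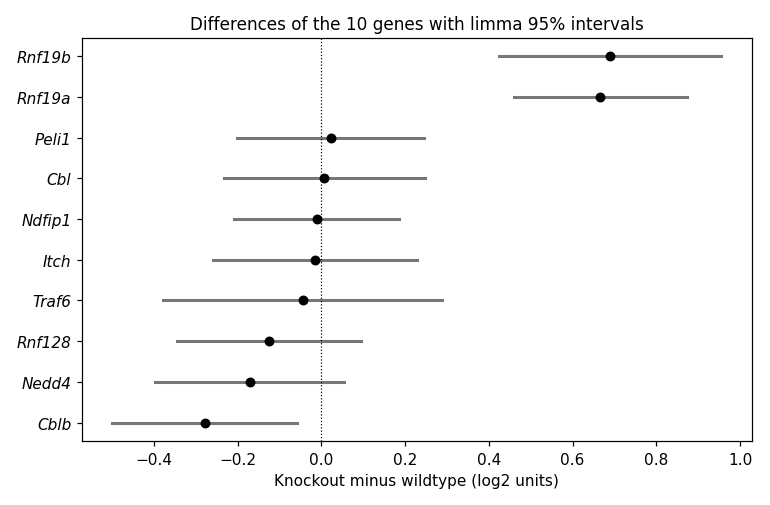
Knockout minus wildtype difference in log2 units (horizontal axis) of each gene, as a point with its limma 95% interval, n = 3 arrays a genotype. The points of Rnf19b and Rnf19a, at 0.69 and 0.67, lie apart from the others, which run from -0.28 for Cblb to 0.02 for Peli1.

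Sequence windows of 250 bases before to 50 bases after a transcription start were at hand from RefSeq (build GRCm38.p6) for 7 of the 10 genes, with 8 windows in all. They are shown for Rnf19b, one of the higher genes, and for Cblb and Nedd4, whose knockout values all lay below their wildtype values. Capitals mark the motif TGAGTCA, searched for on both strands, the core that Bach and AP-1 proteins are known to bind, and bases run 5′ to 3′ along the gene's strand. The windows are chr4:129057894-129058193 (plus strand) for Rnf19b, chr16:52031299-52031598 (plus strand) for Cblb and chr9:72693048-72693347 (plus strand) for the second start of Nedd4.
Rnf19b: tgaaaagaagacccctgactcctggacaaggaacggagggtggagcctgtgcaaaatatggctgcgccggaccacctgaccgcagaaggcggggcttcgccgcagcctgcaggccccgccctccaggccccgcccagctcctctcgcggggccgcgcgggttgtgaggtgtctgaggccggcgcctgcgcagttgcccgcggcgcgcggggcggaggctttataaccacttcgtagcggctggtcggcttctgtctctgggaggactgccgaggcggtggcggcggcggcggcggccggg
Cblb: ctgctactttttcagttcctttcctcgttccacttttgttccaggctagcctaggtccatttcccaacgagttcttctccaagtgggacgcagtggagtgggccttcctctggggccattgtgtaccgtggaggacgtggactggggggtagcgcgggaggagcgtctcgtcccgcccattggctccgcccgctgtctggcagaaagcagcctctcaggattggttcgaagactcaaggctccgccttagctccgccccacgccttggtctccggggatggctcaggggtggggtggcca
Nedd4, second start: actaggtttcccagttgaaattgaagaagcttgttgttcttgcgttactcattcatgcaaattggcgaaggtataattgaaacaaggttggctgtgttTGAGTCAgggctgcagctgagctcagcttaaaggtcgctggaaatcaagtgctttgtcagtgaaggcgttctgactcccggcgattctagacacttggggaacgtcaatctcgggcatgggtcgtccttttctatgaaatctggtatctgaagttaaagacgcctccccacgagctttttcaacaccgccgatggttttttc

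The motif was in 1 of the 8 windows, that of the second Nedd4 start, with its first base at -152 from the start. Over all 32851 windows of this length in the table, 5.2% held it. Absence of these letters from a window says nothing of binding elsewhere. The Rnf19b window was 71.3% G or C with 34 CpG dinucleotides, the Cblb window 61.3% with 17, and the second Nedd4 window 46.7% with 13, whereas the first Nedd4 window, not printed and without the motif, was 73.0% with 35, against medians of 52.7% and 7 over all windows. The windows are credited to RefSeq and are not tied to the probe sets.

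Counting both directions, 4 of the 10 genes had knockout values wholly above or wholly below the wildtype values (2 above, 2 below), where 11.7% of all genes did (5.13% above and 6.57% below); the choice of genes used this contrast and nothing is read from the count. The median of the 10 differences was -0.01, beside a median of -0.01 over all genes. The signs of Cbl, Itch, Ndfip1, Peli1 and Traf6 turned in some of the reduced fits, so their directions are not counted.

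Within the wildtype group the highest and lowest arrays were much the same for the 10 genes as for other pathway genes, and no difference between these sets was tested. Wildtype replicate 2 held the highest wildtype value for 8 of the 10 genes, all but Rnf19b and Rnf128. Of the 107 other ubiquitin pathway genes described next, 68 (63.6%) were also highest there, as were 52.9% of the 10614 genes above the median brightness and 35.1% of all genes. Wildtype replicate 1 held the lowest wildtype value for 5 of the 10 (Rnf19b, Cbl, Cblb, Peli1 and Traf6) and for 56.1% of the other pathway genes, against 38.5% of the brighter genes. Wildtype replicate 2 was also in the pair of wildtype arrays that correlated least, 0.981 with replicate 1, across all probe sets. The part of this array in the differences was not tested beyond the fits without it, in which Rnf19a differed by 0.70 and Rnf19b by 0.72.

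Related genes were read from 8 lists chosen with earlier results of these data known, holding 107 measured genes other than the 10. In the limma fit 1 was called higher and 1 lower, against 0.351% and 0.216% of all genes, and 12 (against 6.91% of all genes) reached an unadjusted p under 0.05. Their median difference was -0.02, beside -0.01 for all genes. Both called genes, the folate receptor family member Izumo1r and the ectonucleotidase Nt5e, belong to the list of 13 anergy genes. With these included, that list held 5 of the 12 genes with an unadjusted p under 0.05, and nothing is read from these counts.

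Among other RBR ligases 0 of 11 passed by limma and 1 had an unadjusted p under 0.05, against 0.567% and 6.91% of all genes. The differences of these 11 ran from -0.38 to 0.13. Rnf144a, an RBR ligase like Rnf19a and Rnf19b, read 7.23, 7.47 and 7.21 in wildtype cells against 6.96, 6.95 and 6.85 in knockout cells, with groups that did not overlap and a difference of -0.38 ± 0.10 (adjusted p = 0.256). It lay on the other side of 0 from Rnf19a and Rnf19b. Rbck1 (HOIL-1) of the linear ubiquitin assembly complex differed by 0.13 (adjusted p = 0.937), and its partner Rnf31 (HOIP), named after its values were seen, by 0.02.

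Of 8 further genes of the Nedd4 family, the adaptor Ndfip2 included, 0 passed by limma (0 at an unadjusted p under 0.05). Smurf2, a HECT ligase of TGF-beta receptors, differed by 0.27 (adjusted p = 0.77) and Wwp1 by -0.17 (adjusted p = 0.873). Of 9 Cbl, Pellino and TRAF relatives, 0 passed by limma (0 unadjusted), and the lowest p were those of Traf5 at -0.25 (adjusted p = 0.799) and Traf7 at 0.20 (adjusted p = 0.852). Over all genes 0.567% were called and 6.91% had an unadjusted p under 0.05, so nothing is read from these counts of 0.

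Of 10 ligases of the family of Rnf128, with a protease-associated domain and a RING, 0 passed by limma and 1 had an unadjusted p under 0.05. The shares over all genes were 0.567% and 6.91%. Rnf149 read 6.94, 7.17 and 6.65 in wildtype cells against 7.66, 7.42 and 7.37 in knockout cells. Its groups did not overlap, and the difference of 0.56 ± 0.14 was the nearest in size to those of Rnf19a and Rnf19b among the ligases of these lists, without passing (adjusted p = 0.185). Rnf148 differed by -0.21 at values near 3 (adjusted p = 0.763).

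Of 21 other ligases of T cell regulation 0 passed by limma and 3 had an unadjusted p under 0.05, against 0.567% and 6.91% of all genes. Rnf125, a RING ligase known to act on RIG-I, read 7.61, 7.76 and 7.77 in wildtype cells against 7.96, 8.03 and 8.13 in knockout cells, without overlap (difference 0.33, adjusted p = 0.351). Socs1, which recruits ligases to cytokine signalling proteins, differed by 0.29 (adjusted p = 0.72). Of 14 deubiquitinases and partners 0 passed, with 1 unadjusted, against the same 0.567% and 6.91%. Otub2 differed by -0.29 (adjusted p = 0.613) and Usp18 by -0.22 (adjusted p = 0.794).

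Of 21 substrates and partners of the ligases 0 passed by limma, with 1 unadjusted, against 0.567% and 6.91% of all genes. Malt1, a Traf6 partner in receptor signalling to NF-kB, read 7.87, 7.92 and 7.83 in wildtype cells against 8.10, 8.14 and 8.09 in knockout cells, without overlap (difference 0.24, adjusted p = 0.548). Pik3r1, a regulatory subunit of PI3-kinase and a Cbl-b substrate, differed by -0.21 (adjusted p = 0.881). Over the list the differences ran from -0.21 to 0.24.

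Of 13 anergy genes Izumo1r was called higher and Nt5e lower by limma, where 0.351% and 0.216% of all genes were. An unadjusted p under 0.05 was reached by 5 of the 13, against 6.91% of all genes. This list shares 3 members, Ctla4, Izumo1r and Nt5e, with the regulatory T cell markers here. Izumo1r read 8.99, 9.71 and 9.35 in wildtype cells against 10.11, 10.37 and 10.32 in knockout cells (difference 0.92, adjusted p = 0.0434). Nt5e was at 5.43, 5.99 and 6.04 against 4.72, 4.87 and 4.76 (difference -1.04, adjusted p = 0.0154). Neither pair of groups overlapped, and wildtype replicate 1 was the lowest wildtype array for both. Izumo1r was called only in the fit without wildtype replicate 2 among the 6 reduced fits, with adjusted p of 0.0636 and 0.196 without wildtype replicates 1 and 3 and of 0.0718, 0.202 and 0.174 without knockout replicates 1, 2 and 3. Nt5e was not called without wildtype replicate 3 (0.0951) or without knockout replicates 1 (0.0602), 2 (0.0543) or 3 (0.0794). The inhibitory receptor Ctla4 differed by -1.09 (adjusted p = 0.0568) and Nr4a1, a nuclear receptor induced by receptor signalling, by -0.50 (adjusted p = 0.0932).

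**Figure D3:**
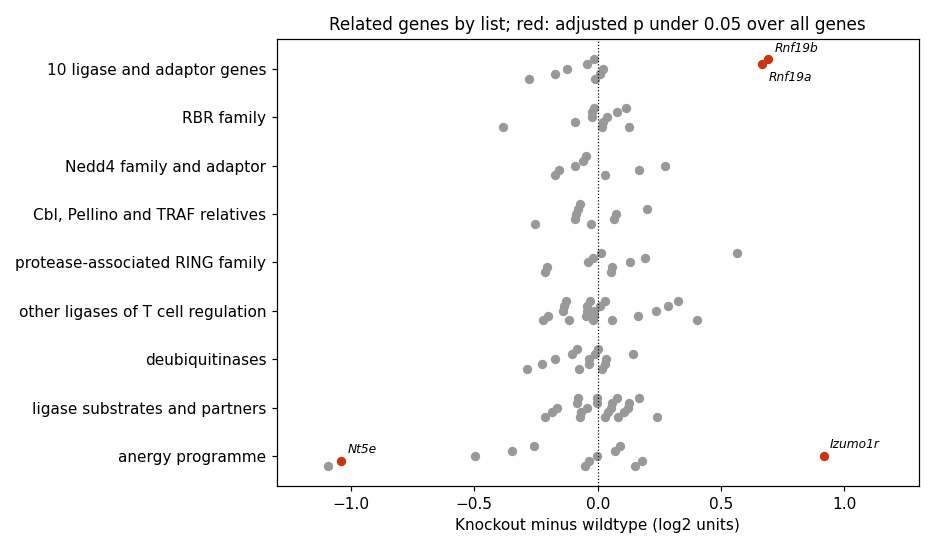
Knockout minus wildtype difference in log2 units (horizontal axis) of every measured gene, in rows by list, with red points for an adjusted p under 0.05 over all genes; vertical offsets within a row carry no value. In the ligase and deubiquitinase lists all points are grey and lie between -0.38 and 0.56, and the red points below the top row are Nt5e and Izumo1r.

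Markers of other cells were read on the same arrays, and the regulatory T cell list was the one of these lists with more than 1 call. Over all genes 0.351% were called higher, 0.216% were called lower and 6.91% had an unadjusted p under 0.05. Of 16 regulatory T cell markers 5 fell and 1 rose by limma, and 14 had an unadjusted p under 0.05. Knockout values lay wholly below the wildtype values for 11 and wholly above for 1, where 6.57% and 5.13% of all genes did. Without wildtype replicates 1, 2 and 3 the 6 reduced fits called 9, 5 and 1 of the 16. They called 3, 2 and 3 without knockout replicates 1, 2 and 3. The mean of the 16 markers by array came to 7.44, 8.07 and 8.08 in wildtype cells against 7.09, 7.06 and 7.12 in knockout cells, so wildtype replicate 1 lay nearest to the knockout. Il2ra differed by -1.93, Lrrc32 by -1.86 and Ikzf2 by -1.51, each called lower, and Izumo1r, called higher, by 0.92. Foxp3 read 7.30, 8.29 and 8.33 in wildtype cells against 5.58, 5.36 and 5.69 in knockout cells. Rnf19b was also lowest in wildtype replicate 1, whereas Rnf19a was within 0.105 over the 3 wildtype arrays. The part of these markers in the Rnf19a and Rnf19b differences was not tested.

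The mean of 8 double-positive thymocyte markers, genes of the stage before CD4 single-positive cells, came to 6.40, 6.68 and 6.69 in wildtype cells against 6.57, 7.10 and 7.65 in knockout cells, with 0 called by limma (3 at an unadjusted p under 0.05). All 8 differences were above 0, as were those of 9204 of all 19938 genes, with a median of 0.42 and a range from 0.02 to 1.27. Cd8a read 7.67, 7.90 and 8.90 in knockout cells, so its difference of 0.37 rested mostly on knockout replicate 3. Rag1 differed by 1.27 with overlap (adjusted p = 0.591) and Arpp21 by 0.95 without overlap (adjusted p = 0.305). Knockout replicate 3, the highest in the mean of these markers, was the lowest knockout array for both Rnf19a and Rnf19b. Of 9 macrophage, monocyte and B cell markers 1, the lysozyme Lyz2, rose, reading 5.68, 4.97 and 5.22 in wildtype cells against 7.03, 6.82 and 6.17 in knockout cells. Lyz2 was not called without wildtype replicate 2 (adjusted p = 0.0823) or 3 (0.153) or without knockout replicate 1 (0.0821) or 2 (0.119). The mean of that list came to 4.37, 4.15 and 4.48 in wildtype cells against 4.66, 4.48 and 4.44 in knockout cells, which overlap, and Itgam, an integrin chain of myeloid cells, read 4.26, 4.18 and 4.56 in wildtype cells against 4.09, 4.02 and 3.89 in knockout cells, lower without overlap and without passing (difference -0.33, adjusted p = 0.528). Adgre1 and Ms4a1, which define macrophages and B cells, were between 2.61 and 3.21. Cd68 of the same list read 5.62, 5.97 and 6.25 in wildtype cells against 6.80, 6.09 and 5.88 in knockout cells, with overlap. Cd79b lay between 5.12 and 5.67 over the arrays. Both Cd68 and Cd79b were thus above the median of all probe sets, 4.94. With wildtype replicate 1 and knockout replicate 3 both left out, a choice made after seeing the data, Rnf19a differed by 0.70 and Rnf19b by 0.62, with adjusted p of 0.0931 and 0.146. Whether any of these cells carried part of the differences was not tested.

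**Figure D4:**
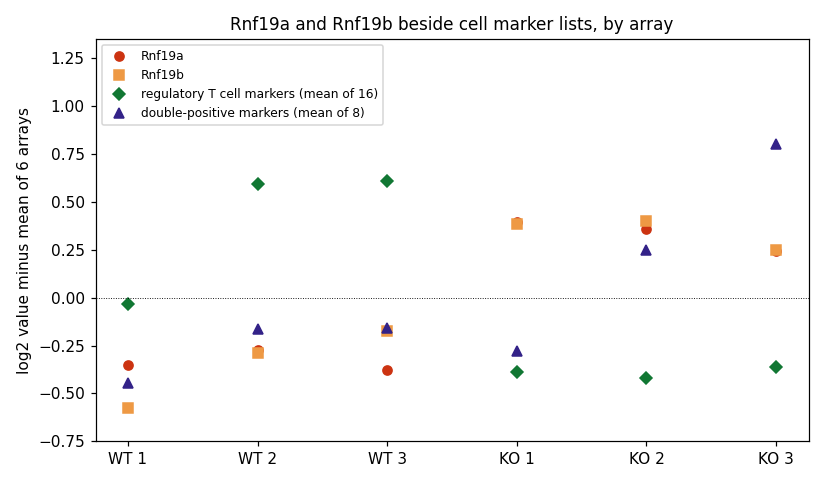
Log2 value minus the mean of the 6 arrays (vertical axis) of Rnf19a, Rnf19b and the means of the regulatory T cell and double-positive marker lists on each array. Rnf19a and Rnf19b lie below 0 on the 3 wildtype and above 0 on the 3 knockout arrays, the regulatory T cell mean is lowest on the knockout arrays, and the double-positive mean differs more within the knockout group than Rnf19a or Rnf19b do.

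Rnf19a lies on chromosome 15 and Rnf19b on chromosome 4, the chromosome of Bach2, with 659 tested genes between Rnf19b and Bach2 in gene order. The other 8 genes lie on chromosomes 2, 9, 11, 16, 18 and X, and Ptprc, the gene of the sorted CD45 allele, on chromosome 1. Among the 5 tested genes on either side of Rnf19b the differences ran from -0.19 to 0.10, with 0 of 10 called and 0 of 10 without overlap. Over all genes 0.567% were called and 11.7% were without overlap, and nothing is read from these counts of neighbours. Among the 10 nearest to Rnf19a the differences ran from -0.24 to 0.30, with 0 called and 2 without overlap. Those 2 were its direct neighbours Spag1 (0.25, adjusted p = 0.7) and Ankrd46 (0.30, adjusted p = 0.439), both higher in the knockout and named after their values were seen.

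The genes whose values followed Rnf19a most closely over the 6 arrays, of 4320 whose values ranged over at least 0.5 log2 units, were Trat1 (Pearson's r = 0.996), Rdm1 (0.994), Egln3 (0.993) and Mirt1 (0.991). Trat1 encodes an adaptor that associates with the T cell receptor and read 7.51, 7.63 and 7.44 in wildtype cells against 8.41, 8.32 and 8.29 in knockout cells. Egln3, a prolyl hydroxylase of hypoxia-inducible factors, differed by 1.88. For Rnf19b they were the paxillin family protein Lpxn (0.991), Coq2 of ubiquinone synthesis (0.990), the calcium-binding protein S100a6 (0.988) and Fam160a2 (0.988), with S100a6 reading 8.24, 8.55 and 8.66 in wildtype cells against 9.35, 9.57 and 9.36 in knockout cells. Rnf19a and Rnf19b followed each other at r = 0.941, and Cblb ran against both at -0.856 and -0.719. All these values come from the same 6 arrays, which span both genotypes. The part of the genotype difference in the likeness was not tested, and the values are given as a description.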

How the data were processed

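Total RNA of sorted CD4 single-positive thymocytes was amplified, labelled with biotin and hybridised, 1 array a sample, per the labels' protocols. For every probe set and array a log2 value was deposited. The authors processed them with RMA and Partek, per the submitters' processing notes, which give no versions. The scale was read from the values; a genome build is not stated in the sources used here. Because RMA equalises the arrays' distributions, a change common to every gene is hidden. Arrays have no read depth, and their number limits the precision.

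Of 35556 probe sets, 21789 carried 1 symbol and were used, 1621 carried several and 12146 none listed. Each gene was taken from its probe set with the highest mean. Knockout minus wildtype was fitted with limma 3.58.1 under R 4.3.3 (lmFit, then eBayes, two-sided), and p-values were adjusted by Benjamini and Hochberg's method over 19938 genes. The replicate number was not in the model. Per the design text every sample came from its own mouse, and the numbers were not taken as pairs. Deviations of same-numbered arrays from their group means correlated at 0.21, 0.11 and -0.07 for numbers 1 to 3. Differently numbered arrays were not compared in this way, so these values cannot decide whether the numbers mark pairs. Gene order came from a RefSeq table of GRCm38.p6 that matched 19855 of the genes by gene number.

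The 10 genes, the lists and the alternatives were chosen with earlier results of these data known. Named beside the 10 genes are each called gene of a ubiquitin pathway list and its 2 uncalled genes with the smallest p. Some genes of each cell marker list, Bach2 and Ptprc, and the 4 genes most like Rnf19a and Rnf19b are named too. Of the pathway lists, 10 genes lacked a probe set annotated with that symbol alone and were not analysed here. Figures were drawn with matplotlib 3.10.9.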

Additional observations from a re-analysis of the deposited data

How the results depend on the processing

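Rnf19a was higher in all 14 alternative settings (other priors, a filter on dim genes, other scalings, averaged probe sets, array weights, the replicate number as a block and each array left out) and was called in 11. Rnf19b was higher in all 14 and called in 7. With the replicate number as a block, 1 of the 10 genes was called, Rnf19a (adjusted p = 0.0217), while Rnf19b had an adjusted p of 0.0536. Among the named pathway genes the block changed the call of Ctla4 (adjusted p = 0.0125). The cause was not tested, and in the labels the same-numbered arrays share only that number.

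The 6 fits with 1 array fewer called 0 to 1 of the 10 genes, 0 to 2 other ubiquitin pathway genes, and 47 to 118 genes in all, of which 29 to 82 were higher and 18 to 66 lower. A prior following expression level called 178 genes, 78 of them lower, and 4 other pathway genes, with Ctla4 and Nr4a1 added. Without both wildtype replicate 1 and knockout replicate 3, an alternative chosen after seeing the data, 61 genes were called, 28 of them higher, and 0 of the 10; fewer arrays were then in the fit.

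Differences near 0 changed sign. Over the 6 fits with 1 array fewer, Cbl ran from -0.066 to 0.073, Itch from -0.0693 to 0.0757, Ndfip1 from -0.035 to 0.00317, Peli1 from -0.0325 to 0.0782 and Traf6 from -0.221 to 0.106. With array weights Itch was at 0.0382 and Traf6 at 0.00356, and with both arrays named above left out Cbl was at -0.099 and Peli1 at -0.0695. These 5 genes were called in 0 of the alternatives, so no direction is given for them. Ctla4 passed in 7 of the 14. Rnf128 is limited by its low signal.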
